A study of Mus musculus with 6 samples.

Results

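The neutrophil-attracting CXC chemokines measured here were the 7 genes Cxcl1, Cxcl2, Cxcl3, Cxcl5, Cxcl15, Ppbp and Pf4. They were found by name, as every probe set whose platform annotation gives 1 of these symbols and no other, which gave 10 of the 45101 probe sets on the array. Cxcl1 had 3 probe sets, Cxcl15 had 2 and each of the other genes had 1. The arrays held RNA from inguinal mammary gland 4 of 3 WT and 3 Rac1 null mice at involution day 2, with 1 array per mouse and no pooling. Involution was started by taking the pups away, and the groups were matched for age. WT mice (Nas478, Nas483 and Nas484) were Rac1fx/fxYFP without Cre, and Rac1 null mice (Nas496, Nas497 and Nas518) were Rac1fx/fxYFP with 1 copy of the WAPiCre transgene, so both groups carried floxed Rac1 and the YFP reporter. The transgene places Cre under the promoter of the milk gene Wap. Deletion is thus aimed at luminal epithelial cells from the middle of pregnancy, and at no other cell type of the gland. The authors report recombination in alveoli and, by early involution, also in the luminal cells of ducts.

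CXC chemokines are small secreted proteins with a pair of cysteines parted by a single residue, and they guide white blood cells along gradients held on heparan sulfate. Those with the residues ELR before the first cysteine bind the receptor Cxcr2 on neutrophils and draw them out of the blood. Cxcl1, Cxcl2, Cxcl3 and Cxcl5 are such ligands, made on demand by epithelium, fibroblasts, endothelium and macrophages. Ppbp is stored in platelets and is cut by neutrophil proteases into an active Cxcr2 ligand. Pf4 is also a platelet granule protein but lacks the ELR residues, binds heparin and is a weak attractant of neutrophils. Cxcl15, or lungkine, is best known from lung epithelium. In an involuting gland, chemokines of this kind are among the signals that bring in phagocytes while dying cells and milk are cleared.

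The 7 genes lie side by side on mouse chromosome 5, in the order Cxcl5, Ppbp, Pf4, Cxcl3, Cxcl15, Cxcl1 and Cxcl2, with no other gene between them in the RefSeq annotation. Their starts were compared for a kappaB-like motif, GGG and TTCC with any 3 bases between, because Cxcl1 and Cxcl2 are known targets of NF-kappaB. The motif was searched on both strands of the 250 bases before the start in RefSeq promoters of GRCm38.p6. It was in 3 of the 6 promoters found for these genes, those of Cxcl1, Cxcl2 and Cxcl3, and in 4.65% of all 32851 promoters of that length in the table. No match lay before Cxcl15, Ppbp or Pf4. No promoter was found for Cxcl5, so it was not searched. The promoters with a match are shown because they share 1 run of 11 letters, GGGAATTTCCC, which matches the motif on both strands with an overlap of all but the outer bases. Capitals mark every match.
Cxcl1, chr5:90890995-90891244, + strand: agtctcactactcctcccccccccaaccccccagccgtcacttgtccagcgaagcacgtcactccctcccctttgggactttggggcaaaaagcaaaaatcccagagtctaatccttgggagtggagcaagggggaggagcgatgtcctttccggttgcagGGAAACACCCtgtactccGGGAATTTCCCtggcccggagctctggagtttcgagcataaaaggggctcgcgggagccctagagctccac
Cxcl2, chr5:90903649-90903898, + strand: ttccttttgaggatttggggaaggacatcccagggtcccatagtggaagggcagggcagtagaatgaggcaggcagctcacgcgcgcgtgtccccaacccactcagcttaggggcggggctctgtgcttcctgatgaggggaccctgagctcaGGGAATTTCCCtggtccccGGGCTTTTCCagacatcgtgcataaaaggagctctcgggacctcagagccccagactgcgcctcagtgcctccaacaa
Cxcl3, chr5:90785851-90786100, + strand: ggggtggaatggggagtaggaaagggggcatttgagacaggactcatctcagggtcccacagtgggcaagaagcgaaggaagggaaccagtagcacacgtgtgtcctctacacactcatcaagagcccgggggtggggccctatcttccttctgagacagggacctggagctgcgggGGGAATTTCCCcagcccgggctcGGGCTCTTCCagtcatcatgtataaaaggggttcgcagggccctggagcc
The shared run began 71 bases before the start of Cxcl1, 97 before that of Cxcl2 and 73 before that of Cxcl3. Cxcl1 had a further match on the other strand, GGAAACACCC. Cxcl2 and Cxcl3 had further matches on the strand of the gene, GGGCTTTTCC and GGGCTCTTCC. A match is a stretch of letters and was not tested as a binding site.

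**Figure D1:**
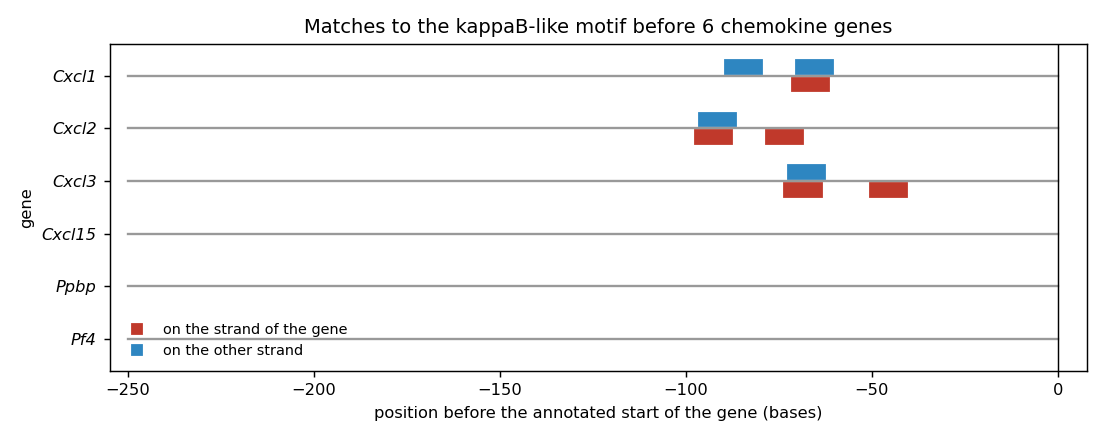
Position of each match to the kappaB-like motif in the 250 bases before the annotated start (at 0) of 6 chemokine genes, 1 row per gene, with matches on the strand of the gene in red and on the other strand in blue. Cxcl1, Cxcl2 and Cxcl3 each have 3 matches, of which an overlapping pair forms the shared run, and the rows of Cxcl15, Ppbp and Pf4 are empty.

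The arrays differed in range. The median deposited intensity ran from 40.6 in Nas478 to 88.0 in Nas497, and the interquartile range of log2 intensity from 1.23 in Nas497 to 2.85 in Nas478. Nas497 and Nas484, 1 mouse of each group, had the highest scores on the first principal component, 195 and 115 against -136 to 12.6 for the others. The actin controls measure RNA quality, as the log2 signal at the 3' end minus that at the 5' end, and this was below every WT value on all 3 Rac1 null arrays, at -1.24 to -0.30 against -0.17 to 0.048. Values below are log2 intensities after quantile normalization, and a difference of 1 is a doubling. Milk genes marked the tissue, with Csn2 (beta-casein) between 14.63 and 15.96 and Wap (whey acidic protein) between 11.84 and 15.27. Rac1 itself had overlapping groups on all 3 of its probe sets. Which exons Cre removed is not stated, so these probe sets could not serve as a check of the deletion. The deposited values carry no detection call. As a stand-in for an unexpressed gene, the 44 probe sets that name only an olfactory receptor had a 95th percentile of 6.51 for their mean, with a median of 5.48. On single arrays that percentile ran from 5.83 in Nas478 to 7.70 in Nas497. Of the 10 chemokine probe sets, 3 had a mean above the percentile of 6.51, namely 1419209_at and 1441855_x_at of Cxcl1 and 1448995_at of Pf4. Levels of different probe sets depend on their probes and are not compared with each other.

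The two-sided limma tests over 45037 probe sets gave no call at an adjusted p under 0.05 (percent called 0), and none of the 10 chemokine probe sets passed (adjusted p from 0.948 to 0.958). At an unadjusted p under 0.05, 2 of the 10 were higher in Rac1 null glands, Cxcl1 1419209_at and Cxcl2, where 1.88% of all probe sets were higher. In the other direction 0 of the 10 had such a p, where 2.17% of all probe sets were lower. Every Rac1 null value lay above every WT value for the same 2 probe sets, against 4.59% of all probe sets. Every Rac1 null value lay below every WT value for 1 of the 10, that of Cxcl5, against 4.86% of all probe sets. In all, 7 chemokine probe sets had an estimate above 0 and 3 below. Their median log2 fold change was 0.57 and that of all probe sets was -0.01. The estimates thus ran in both directions, with Cxcl1 and Cxcl2 at one end and Cxcl5 at the other. Of all probe sets with an unadjusted p under 0.05, 46.3% were higher in Rac1 null glands, and 79.6% without normalization between arrays, where the median of all probe sets was 0.37. In whole glands, more cells of a type and more RNA per cell cannot be told apart.

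**Figure D2:**
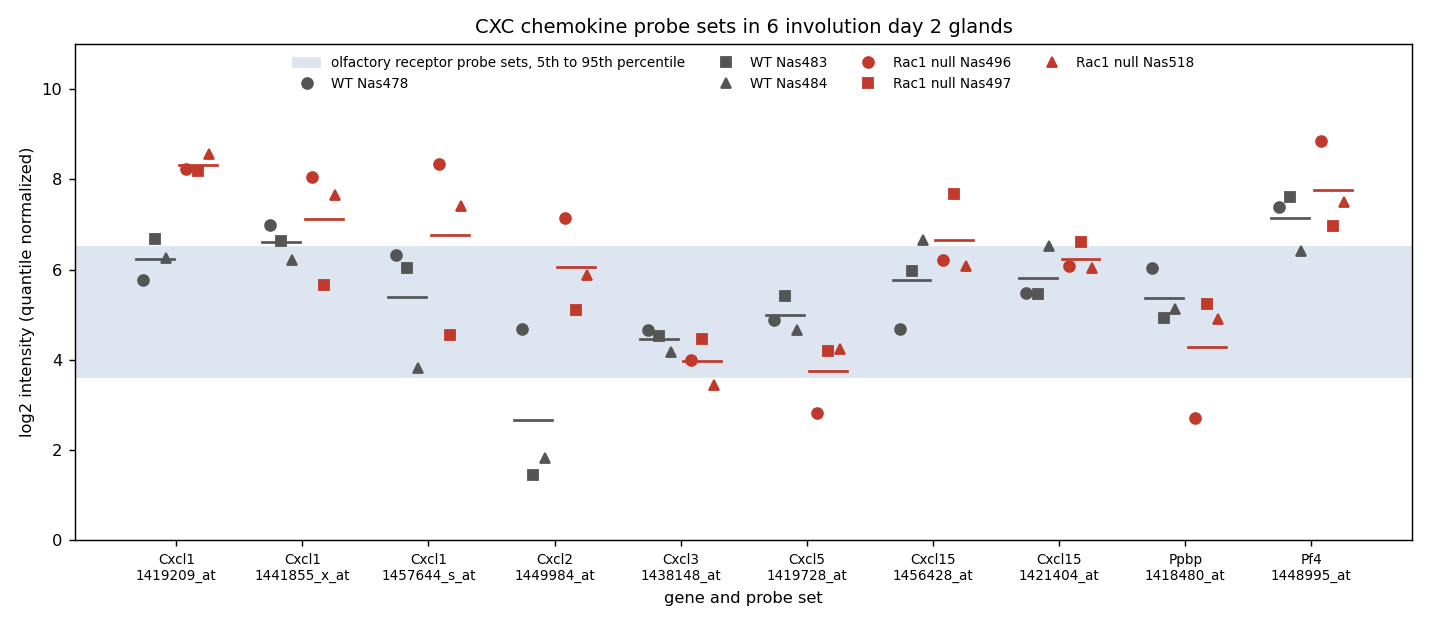
Quantile-normalized log2 intensity of the 10 chemokine probe sets in 3 WT mice (grey) and 3 Rac1 null mice (red), with 1 symbol per mouse and a bar at each group mean. The blue band runs from 3.63 to 6.51, the 5th to 95th percentile of the means of olfactory receptor probe sets, and the groups are apart for Cxcl1 1419209_at, Cxcl2 and Cxcl5.

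Cxcl1, the mouse counterpart of the human GRO chemokines, gave the clearest difference on 1 of its probe sets. On 1419209_at the log2 intensities were 5.77, 6.67 and 6.25 in WT Nas478, Nas483 and Nas484, and 8.23, 8.18 and 8.56 in Rac1 null Nas496, Nas497 and Nas518. All 3 Rac1 null mice stood above the olfactory percentile of their own array and above every WT mouse, and 1 of 3 WT mice stood above it. As deposited, before normalization between arrays, the intensities of this probe set were 33.1, 90.4 and 84.3 for WT glands against 319, 205 and 330 for Rac1 null glands. The group means were 6.23 ± 0.45 (SD, n = 3) and 8.32 ± 0.21 (SD, n = 3), which differ by 2.09 on the log2 scale (SE 0.47, adjusted p = 0.948). On the linear scale this is 4.26-fold, with a 95% confidence interval from 2.02 to 8.99. Scaling to a common median gave 1.67 and no normalization between arrays gave 2.14, and the groups were apart under both. Without Nas484 and Nas497 the estimate was 2.50.

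The other probe sets of Cxcl1 did not separate the groups, and the mouse Nas497 was the point of difference. On 1441855_x_at, whose suffix marks probes that may bind other transcripts, WT mice had 6.99, 6.64 and 6.21 and Rac1 null mice had 8.05, 5.67 and 7.65. Nas497 was the lowest of the 6 mice there, while Nas496 and Nas518 were the highest. On 1457644_s_at WT mice had 6.32, 6.04 and 3.82 and Rac1 null mice had 8.33, 4.56 and 7.41. Nas497 again lay well below the other Rac1 null mice, and Nas484 was lowest among WT mice. The log2 fold changes were 0.51 (SE 0.69) and 1.37 (SE 1.06). Without Nas497 they were 1.35 and 2.70, and without Nas484 and Nas497 together 1.20 and 1.97, and in both cases the groups no longer overlapped. Without Nas496 they were 0.05 and 0.57. With the actin end difference added to the fit they were 2.02 and 3.88. That difference did not overlap between the groups and was lowest in Nas497, so its part and that of the group cannot be told apart. On 1419209_at the estimate without Nas497 was 2.36. In Nas496 and Nas518 all 3 probe sets of Cxcl1 thus lay above every WT value, and in Nas497 1 of the 3 did.

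Cxcl2, a ligand of the same receptor made quickly by macrophages and neutrophils on stimulation, had a dim probe set with higher values in Rac1 null glands. The log2 intensities of WT mice were 4.70, 1.45 and 1.83, against 7.15, 5.12 and 5.88 for Rac1 null mice. Nas478 was the highest WT mouse and lay just under Nas497, the lowest Rac1 null mouse, and Nas496 alone stood above the olfactory percentile of its array. The deposited intensities of WT glands, 8.46, 1.001 and 5.58, compare with 142, 55.3 and 68.5 for Rac1 null glands. The means were 2.66 ± 1.77 (SD, n = 3) and 6.05 ± 1.03 (SD, n = 3), which differ by 3.39 on the log2 scale (SE 0.93, adjusted p = 0.948). All 3 WT values lay under the olfactory median of their array, and so did those of Nas497 and Nas518. The size thus rests on values largely at background in both groups, and no linear fold is given. With 16 added to each intensity before log2, which damps low values, the estimate was 1.76, below the 1.88 of Cxcl1 1419209_at in that setting. It was 4.02 with a common median and 4.49 without normalization between arrays, with the groups apart under both.

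Cxcl3, another ELR ligand of Cxcr2 and the third gene with the 11-letter run before its start, had overlapping groups. WT mice had 4.67, 4.53 and 4.17 and Rac1 null mice had 4.01, 4.47 and 3.44. They lay in a narrow band under the median of the olfactory receptor probe sets on every array. The log2 fold change was -0.48 (SE 0.48), with a 95% confidence interval from -1.60 to 0.63. It turned to 0.10 with a common median and to 0.57 without normalization between arrays, so no direction can be given.

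Cxcl5, an ELR chemokine made mainly by epithelial cells, had lower values in Rac1 null glands. The log2 intensities of WT mice were 4.88, 5.42 and 4.65, against 2.81, 4.19 and 4.25 for Rac1 null mice. Every Rac1 null mouse lay below every WT mouse, with Nas496 lowest, although all values lay under the olfactory 95th percentile of their array. The deposited intensities, 10.9, 27.7 and 34.4 in WT and 4.65, 33.2 and 25.97 in Rac1 null glands, overlapped. The means were 4.99 ± 0.39 (SD, n = 3) and 3.75 ± 0.81 (SD, n = 3), and Rac1 null minus WT was -1.23 on the log2 scale (SE 0.56, adjusted p = 0.948). The 95% confidence interval, from -2.52 to 0.05, includes 0. The estimate was -0.76 without Nas496 and -1.92 without Nas484 and Nas497. The groups overlapped under both settings that scale the arrays in another way, with a common median (-0.93) and without normalization between arrays (-0.46).

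Cxcl15 had probe sets that gave the same order of groups with wide overlap. On 1456428_at WT mice had 4.68, 5.96 and 6.65 and Rac1 null mice had 6.22, 7.68 and 6.09. On 1421404_at WT mice had 5.48, 5.47 and 6.53 and Rac1 null mice had 6.09, 6.61 and 6.04. In each case the highest mouse was Nas497 and the highest WT mouse was Nas484, the arrays that stood apart, and no value passed the olfactory 95th percentile of its own array. The log2 fold changes were 0.90 (SE 0.69) and 0.42 (SE 0.51). With the actin end difference, which did not overlap between the groups, added to the fit they turned to -0.34 and -0.11.

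The platelet chemokines had estimates of opposite sign, and neither separated the groups. Ppbp, the precursor of the Cxcr2 ligand known as NAP-2, had 6.04, 4.93 and 5.14 in WT and 2.72, 5.24 and 4.91 in Rac1 null mice. Nas496 was far below the rest, and without it the log2 fold change of -1.08 (SE 0.74) was -0.29. Without Nas478, the highest mouse, it was -0.73. Pf4, or platelet factor 4, had 7.40, 7.60 and 6.42 in WT and 8.86, 6.96 and 7.49 in Rac1 null mice. Nas496 was the highest mouse here, and the log2 fold change was 0.63 (SE 0.63), or 0.08 without it and 0.09 with a common median. Of 13 platelet and megakaryocyte markers, 11 had a probe set, and none of the 11 had a mean above the olfactory 95th percentile. The 2 brightest of these markers, P2ry12 (an ADP receptor) and Gp5 (a subunit of the von Willebrand factor receptor), had log2 fold changes of 0.49 (SE 0.44) and 0.28 (SE 0.57). The summed linear level of the 11 ran from 421 to 763 in WT and from 497.3 to 898.4 in Rac1 null glands, with the highest values in Nas484 and Nas497. Pf4 itself had a mean above that percentile and Ppbp did not. The part of platelets in it was not tested.

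**Figure D3:**
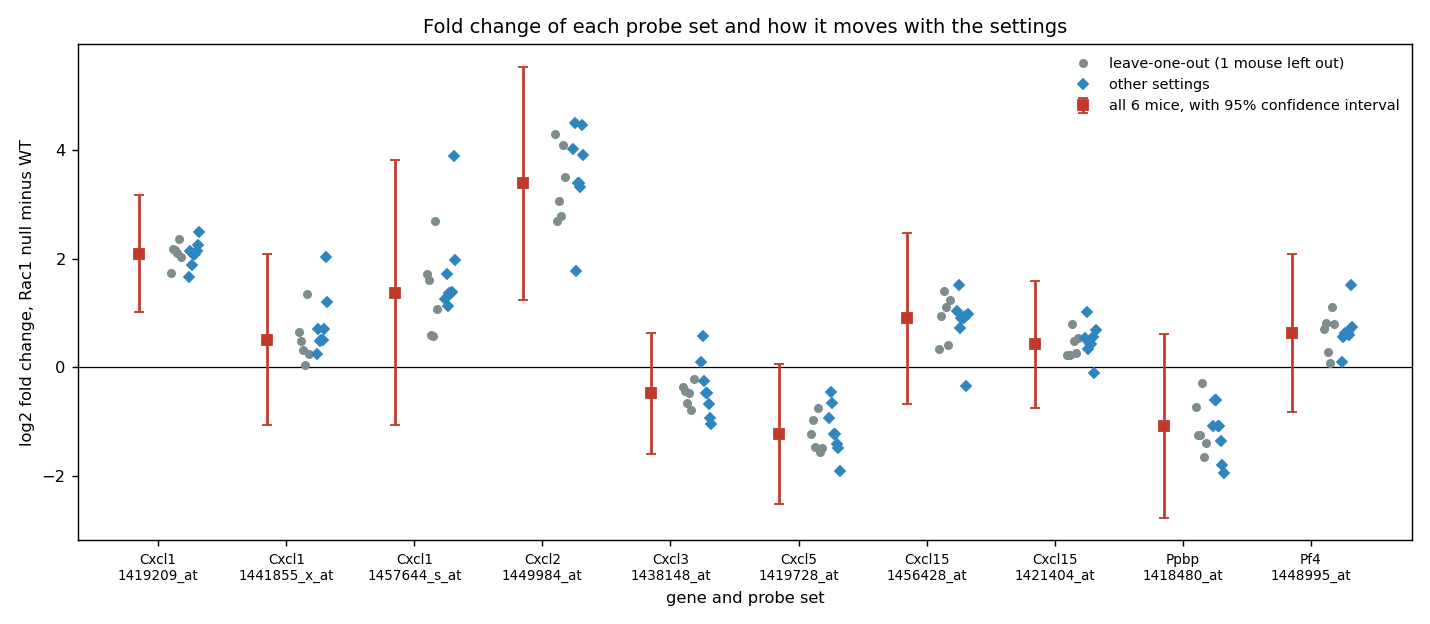
Log2 fold change (Rac1 null minus WT) of each chemokine probe set with all 6 mice and its 95% confidence interval from limma (red), with 1 mouse left out at a time (grey) and under the other settings (blue). The intervals of Cxcl1 1419209_at and Cxcl2 lie above 0, all other intervals include 0, and estimates on both sides of 0 occur for Cxcl3 and Cxcl15.

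Cxcl1 was also set against the other genes within each mouse, as the difference between the log2 value of Cxcl1 1419209_at and that of another gene's probe set with the highest mean. The difference from Cxcl5 averaged 1.25 ± 0.35 (SD, n = 3) for WT mice and 4.57 ± 0.75 (SD, n = 3) for Rac1 null mice, a change of 3.33. For Ppbp the change was 3.17 and for Cxcl3 2.57. In these 3 pairs every Rac1 null mouse lay above every WT mouse, and the two-sided exact permutation p was 0.1, the smallest that 3 against 3 mice can give (adjusted p = 0.2 over the 6 pairs). For Pf4 the change was 1.46 (exact p = 0.2), for Cxcl15 1.19 (exact p = 0.3) and for Cxcl2 -1.30 (exact p = 0.5), with overlapping groups (adjusted p = 0.3, 0.36 and 0.5). No pair could pass a threshold of 0.05 in this design. Cxcl1 was taken as the reference with its difference between the groups known, so these steps largely restate it. Cxcl5, Ppbp and Cxcl3 had no Rac1 null value above the olfactory percentile of its array, so their steps set Cxcl1 against values at background, and Ppbp was lowest in Nas496.

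**Figure D4:**
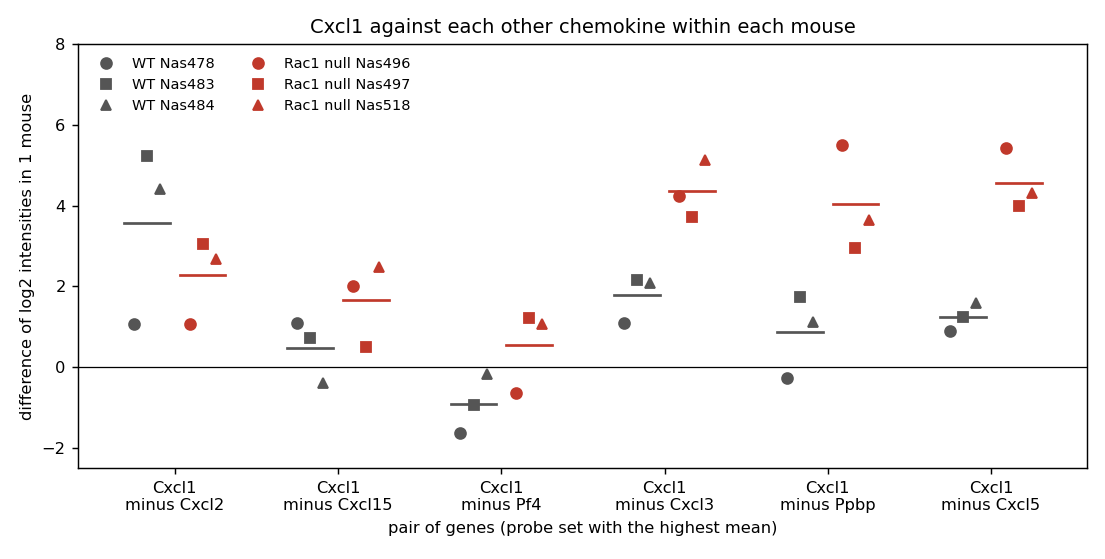
Difference between the log2 intensity of Cxcl1 and that of each other chemokine in the same mouse, for 3 WT (grey) and 3 Rac1 null mice (red), with bars at the group means; the height of a pair depends on its probes, and only the step between the groups is read. The step is 3.33 for Cxcl5, 3.17 for Ppbp and 2.57 for Cxcl3, where the groups do not overlap, and the groups overlap for Cxcl2, Cxcl15 and Pf4.

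The receptors of these ligands did not separate the groups. Cxcr2, the receptor through which neutrophils follow them, had 4.09, 4.50 and 4.02 in WT and 3.93, 4.31 and 5.63 in Rac1 null mice. Its probe set was dim, Nas518 alone stood above the WT mice, and the log2 fold change was 0.42 (SE 0.57). Ackr1, the Duffy antigen that carries chemokines across venules, had 0.83 (SE 0.64), and Sdc1, a heparan sulfate proteoglycan that holds them, had 0.45 (SE 0.46). The list held 7 symbols of receptors and binding partners, of which Darc is an older name of Ackr1, and 5 symbols had a probe set. All 5 had an estimate above 0 with a median of 0.42, and 0 had an unadjusted limma p under 0.05. At the level of genes, each on its probe set with the highest mean, 1.88% of 18193 genes were higher and 1.52% lower at such a p.

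Among 18 measured inducers and regulators of these chemokines, the estimate was positive for 13 and negative for 5 (median 0.25). At an unadjusted limma p under 0.05, 1 was higher, Il1r1, and 0 were lower, where 1.88% of all genes were higher and 1.52% lower. Every Rac1 null value lay above every WT value for 3 of the 18, against 4.59% of all probe sets. These were Il1r1, Il1b (log2 fold change 0.81, SE 0.46) and Tlr2 (0.53, SE 0.44). Of the 3, only Tlr2 had a mean above the olfactory percentile of 6.51. For 0 of the 18 every Rac1 null value lay below every WT value. Il1r1 is the receptor for interleukin-1, a cytokine that strongly induces Cxcl1 in epithelium and stroma. Il1r1 had 5.82, 4.26 and 5.78 in WT and 6.34, 6.79 and 6.70 in Rac1 null mice. All Rac1 null mice lay above all WT mice, and the log2 estimate was 1.32 (SE 0.56, adjusted p = 0.948). The Il1r1 probe set was dim, with a mean of 5.95, and Nas496 alone stood above the olfactory percentile of its own array. Il6, a cytokine induced by the same signals, had a WT value at the floor in Nas483 and its fold is not given. The other WT mice had 1.60 and 5.13, and Rac1 null mice had 4.68, 4.70 and 5.31. Of 7 proteases that can cut these chemokines none had such a p, and Mmp12 had 0.34 (SE 0.55) and Mmp9 -0.23 (SE 0.50). Of 9 other CXC and CX3C chemokines, 6 lay above 0 and 3 below with a median of 0.55. The transmembrane chemokine Cxcl16 had 0.97 (SE 0.50) with groups apart, and the mucosal chemokine Cxcl17 had -1.60 (SE 0.93) with overlap.

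Markers of neutrophils were set beside the chemokines. Of 14, 11 had a probe set, and the estimate was positive for 8 of them and negative for 3 (median 0.42). Among all genes, 1.88% were higher and 1.52% lower at an unadjusted limma p under 0.05. Of the 11 markers 3 were higher at such a p, namely Clec4d (log2 fold change 2.20, SE 0.58), Fpr2 (1.63, SE 0.47) and Mpo (1.65, SE 0.56), and 0 lower. All 3 had a mean under the olfactory percentile of 6.51, and no Mpo value passed that of its own array. The lectin Clec4d and the formyl peptide receptor Fpr2 are also made by macrophages, and Mpo is the peroxidase of neutrophil granules. The other granule genes had estimates of -0.02 for Ngp, -0.13 for Camp and 0.19 for Mmp8. The calcium-binding granule protein S100a8 had 7.93, 7.76 and 7.53 in WT and 8.04, 7.76 and 7.12 in Rac1 null mice, and the groups overlapped. S100a9 had 4.62, 6.72 and 7.45 in WT and 7.39, 5.91 and 7.69 in Rac1 null mice. Its log2 fold change was 0.73 (SE 0.83), and the groups overlapped. The dim marker Csf3r had 0.54 (SE 0.85), also with overlap. The brightest marker, Ltf or lactoferrin, is also made by mammary epithelium, and it had a log2 fold change of 0.04 (SE 0.47). S100a8, S100a9 and Ltf were the 3 markers with a mean above the olfactory percentile of 6.51. The summed level of the 11 markers overlapped, at 7420 to 12293 in WT and 9668 to 12855 in Rac1 null glands, and Ltf made up most of it. Without Ltf it ran from 507 to 697 in WT and from 774 to 997 in Rac1 null glands, with no overlap. Without Fpr2 and Clec4d as well, the other 8 markers summed to 442 to 611 in WT and 575 to 746 in Rac1 null glands, and the groups overlapped. No marker was at the floor. Macrophages, another source of Cxcl1 and Cxcl2, had 12 of 13 markers above 0 with a median of 0.69, where 53.9% of all genes were above 0. None of the 13 had an unadjusted limma p under 0.05. Their summed level ran from 2400 to 5141 in WT and from 3802 to 9088 in Rac1 null glands. It was highest in Nas496 and Nas518 and lower in Nas497, the order also seen on 1441855_x_at and 1457644_s_at of Cxcl1 but not on 1419209_at. Nas484 and Nas497, the arrays that stood apart, had the lowest sum of their group. They were also lowest in their group on those probe sets of Cxcl1. A difference between arrays and a difference in macrophage content cannot be told apart here. The bright macrophage markers Lyz2 and Ctss had 0.82 (SE 0.49) and 1.28 (SE 0.74).

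Of 9 luminal epithelial markers, 3 had an estimate above 0 and 6 below, with a median of -0.19. At an unadjusted limma p under 0.05, 3 were lower and 0 higher, where 1.52% of all genes were lower and 1.88% higher. The 2 brightest, Csn2 and Wap, had -0.86 (SE 0.44) and -2.77 (SE 0.47). The summed level of the 9 was 97324 to 137644 in WT and 38635 to 50210 in Rac1 null glands. Without Csn2, Wap, Lalba and Elf5 the order turned, with 3840 to 4682 in WT and 5252 to 6111 in Rac1 null glands. Those were the 4 markers with every Rac1 null value below every WT value, so leaving them out favoured a turn. Of the 5 kept, 3 had an estimate above 0, while Krt19 had -0.19 and Epcam -0.14. Endothelial markers had a median of -0.29 over 5 genes, where the brightest, Cdh5 and Pecam1, had -0.50 and 0.15, and fibroblast markers had 0.12 over 5 genes, where Dcn and Col1a1 had 0.23 and -0.20. The part of neutrophils, macrophages and epithelium in the Cxcl1 and Cxcl2 values was not tested.

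**Figure D5:**
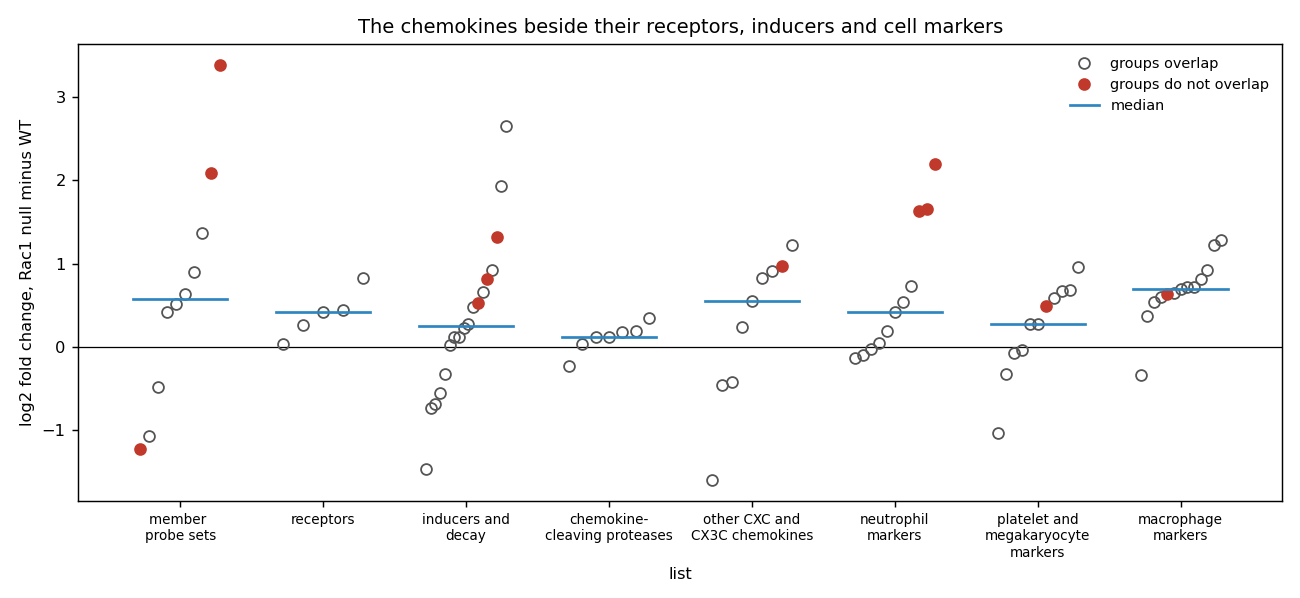
Log2 fold change (Rac1 null minus WT) of the 10 chemokine probe sets and of each gene in 7 lists, 1 point per probe set or gene, filled where the groups do not overlap, with a blue line at the median. The chemokines hold both the highest filled point, Cxcl2 at 3.39, and a filled point below 0, Cxcl5 at -1.23. For Cxcl2 the WT values and those of Nas497 and Nas518 lay under the olfactory median of their array. The top open point among the inducers is Il6, whose value rests on a WT mouse at the floor.

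The genes nearest in pattern were sought for Cxcl1 1419209_at, Cxcl2 and Cxcl5 among 18766 probe sets with 1 gene symbol and a mean above the median. Likeness was the root mean square difference between log2 values over the 6 arrays, each centred on its own mean. Nearest to Cxcl1 were Aldh1a3 (0.29), Ccl2 (0.30), Slc9a9 (0.32), Osbpl3 (0.35) and Mgp (0.44). Ccl2, the main monocyte attractant, had 5.70, 6.25 and 6.35 in WT and 7.99, 7.44 and 7.94 in Rac1 null mice. Nearest to Cxcl2, though at over 1 log2 unit, were Cldn1 (1.21), Anxa3 (1.22), Anxa1 (1.22), Mgp (1.25) and Miga2 (1.31). Cxcl2 and Cxcl5 had means below that median, so probe sets as dim as theirs were not candidates. The measure is not scaled for spread, and Cxcl2 ran from 1.45 to 7.15. Whether any gene followed Cxcl2 closely can therefore not be said. Nearest to Cxcl5 were Atp6v1c2 (0.23), Arfgap2 (0.27), Cutal (0.30), Ogfrl1 (0.30) and Itga6 (0.30). For all 3 chemokines the nearest genes were taken from many candidates on 6 arrays, and their likeness is a description.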

How the data were processed

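Whole-gland RNA was amplified by the authors with the Affymetrix Sensation kit and hybridized to mouse GeneChip arrays. The authors deposited linear intensities, and the method of summary and normalization is not given in the sources used here. With 2% trimmed from each end, every array has a mean of 100, so arrays had been scaled singly. No 2 arrays were identical (0 pairs).

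Intensities were quantile normalized (limma 3.58.1, R 4.3.3), floored at 1 and converted to log2. The 64 control probe sets were left out and 45037 were fitted with lmFit and eBayes, Rac1 null against WT, with Benjamini-Hochberg adjustment and a threshold of 0.05. For gene lists the probe set with the highest mean was used. The fit was tested on simulated data. The labels call the mice separate animals, and the number of arrays limits the precision. Members, lists, tests and alternatives were chosen with earlier results of these data known. Genes were named as every member probe set, the 2 of each context list with the smallest p and Cxcr2, the 2 brightest of each marker list and the 5 nearest in pattern. Clec4d, Fpr2, Mpo, Ngp, Camp, Mmp8, S100a9, Csf3r, Il1b and Tlr2 were named after their values were seen. The alternatives were a common median, no normalization, log2(value + 16), probe sets above the median mean, 1 probe set per gene, a prior variance that follows the mean, array weights, the actin difference as a covariate, and leaving out Nas484 and Nas497 or each mouse in turn. Sums without Ltf, without Ltf, Fpr2 and Clec4d, and without the milk genes and Elf5 were added after seeing the data.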

Additional observations from a re-analysis of the deposited data

How the results depend on the processing

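No probe set passed an adjusted p under 0.05 in any setting. Of the 10 chemokine probe sets, the count with an unadjusted limma p under 0.05 and a higher value in Rac1 null glands was 2 with all mice. It was 1 over probe sets above the median mean, which leave out Cxcl2, and 4 when the actin difference entered the fit. The actin difference did not overlap between the groups, so the 2 cannot be told apart in that fit. With 1 mouse left out it ran from 2 to 4, the latter without Nas497, where the other probe sets of Cxcl1 joined. The count lower was 0 with all mice and 1, Cxcl5, with array weights and without Nas484 and Nas497. With 1 mouse left out it was 0 throughout. Cxcl3 turned to 0.10 with a common median and 0.57 without normalization between arrays, and Cxcl15 to -0.34 (1456428_at) and -0.11 (1421404_at) with the actin covariate, and the cause was not tested. No other chemokine estimate changed sign. Without normalization 79.6% of the probe sets with an unadjusted p under 0.05 were higher against 46.3%, and the median of all probe sets was 0.37. The share was 60.9% without Nas484 and 30.0% without Nas497. Such probe sets numbered 845 higher and 979 lower with all mice, and over the alternatives from 375 to 2435 higher and from 332 to 1690 lower. The low ends came from fits of fewer probe sets, 375 from the 22518 above the median mean and 332 from 18193 at 1 per gene. Over all 45037 the lowest counts were 442 higher, without Nas497, and 407 lower, without normalization between arrays. No paired analysis was possible because the labels give the mice no shared numbers. Signals near those of olfactory receptor probe sets limit what can be said of Cxcl2, Cxcl3, Cxcl5, Cxcl15 and Ppbp.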
